A study of Mus musculus with 4 samples.

Results

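Small monocyte-derived peritoneal macrophages were examined in single-cell transcriptomes of the peritoneal cavity of mice. They were chosen by transcripts counted in each droplet barcode. A small macrophage had at least 3 unique molecular identifiers (UMIs, 1 per captured transcript) of C1qa, C1qb and C1qc together and at least 1 of Csf1r. It had no more than 2 of the large-macrophage genes Gata6, Alox15, Prg4, Garnl3 and F5 and no more than 10 of the B-cell genes Cd79a, Cd79b and Ms4a1. Barcodes also needed 200 detected genes and a mitochondrial share below 10%. The rule found 123 barcodes among 32603, of which 104 were in the knockout (KO) library and 19 in the wild-type (WT) library. CD45-sorted cells of the lavage fluid gave 1 expression library and 1 B-cell receptor (BCR) library for KO and the same for WT, made with 10x Genomics droplets. All mice, KO and WT, had begun a high-fat diet at the age of 4 weeks and stayed on it for 3 months. The sources used here do not state how many mice were pooled, or their strain.

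The peritoneal cavity of a mouse holds a pair of macrophage populations. Large macrophages are long-lived, depend on the transcription factor GATA6, and carry little MHC class II. Small macrophages are replenished by blood monocytes that enter through the chemokine receptor CCR2. They carry more MHC class II, the molecule that shows antigen to CD4 T cells, and less of the surface marker F4/80, which Adgre1 encodes. The C1q chains start the classical complement pathway and coat dying cells, and Retnla encodes a secreted protein induced by interleukin-4 through STAT6.

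Over 22516 barcodes the KO matrix summed to 103953298 UMIs (median 3298 a barcode), and over 10087 barcodes the WT matrix summed to 81817635 (median 6362). Small macrophages had a median of 6416 UMIs (717 to 20012) in KO and 9411 (2075 to 20759) in WT, and a median of 2132.5 and 2714 genes. Their median mitochondrial share was 0.815% in KO and 0.788% in WT. Depth therefore differed between the libraries within the small macrophages too. The libraries shared 293 barcode sequences, no small macrophage of KO shared its barcode with a small macrophage of WT, and 2 small macrophages of KO had a barcode that was also in the WT library. A single library a genotype gives no spread over mice, and genotypes are therefore set side by side without a test. All intervals below are 95% and cover counting error only.

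Many small macrophages of the KO library came as pairs of barcodes with near-identical counts. For each barcode the mean chi-square per gene was taken against its nearest neighbours, over genes with at least 10 UMIs in the 2 barcodes together and without immunoglobulin or T-cell receptor genes. Sampling noise alone gives a value near 1. Barcodes were called a pair where each was the other's nearest, the value was at most 1.25, and the next neighbour was at least 1.25 times farther. By this measure 45 of 104 small macrophages in KO (43.3%) belonged to a pair, against 1 of 19 in WT. Paired small macrophages of KO had values of 0.722 to 1.20 to their partner and at least 1.27 to the next barcode, while unpaired ones had a median of 1.77. The pairs lay within the small macrophages in 19 cases, and 7 more had their partner outside, 6 of these because the partner had no Csf1r UMI. The large macrophages and the Cd209a dendritic cells, described below, had pairs in like shares in KO, 44.6% and 42.5%, against 0 of 20 and 5% in WT.

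The receptor contigs, which the pairing did not use, were then compared. Over the whole library, 93.9% of 554 paired KO barcodes with a heavy chain in both BCR profiles carried the same heavy-chain junction as their partner, against 97.3% of 74 in WT. With the second nearest barcode the share was 2.65% of 453 in KO and 0 of 58 in WT. Paired small macrophages in KO had a median of 5130 UMIs, and unpaired ones had 7479. Counted by distinct profiles, the KO library held 85 small macrophages and the WT library 19. How the pairs arose was not tested. Results are for all barcodes unless 1 barcode per pair is stated. The comparisons with other classes, the receptor contigs and the splits by Lyve1, Folr2 and Mrc1 were not repeated with 1 barcode per pair.

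**Figure D1:**
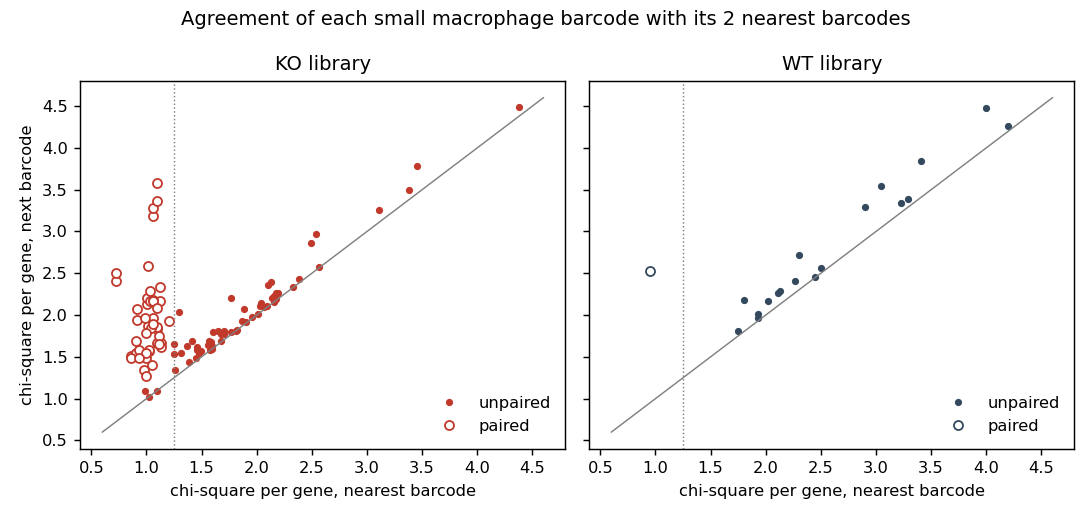
Each point is a small macrophage barcode (KO left, WT right), placed by the mean chi-square per gene to its nearest barcode (horizontal) and to the next one (vertical). Open points are paired barcodes, 45 in KO and 1 in WT, which stand left of the dotted limit of 1.25 and above the line of equality.

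Small macrophages made up 0.466% of kept barcodes in the KO library (104 of 22327, 0.381 to 0.564) and 0.190% in the WT library (19 of 10018, 0.114 to 0.296). The share was 2.46 times as high in KO (1.51 to 4.00). Counting each pair of barcodes once, in these cells and in all others, gave 2.05 (1.24 to 3.36), although pairs are harder to find among shallow lymphocytes. Other myeloid classes had a higher share in KO as well. The ratio was 2.06 (1.27 to 3.35) for large macrophages and 1.53 (1.19 to 1.96) for Cd209a dendritic cells. As a share of these 3 classes, small macrophages were 22.2% in KO (104 of 469) and 16.0% in WT (19 of 119), 1.39 times as high in KO, and the interval of that ratio, 0.889 to 2.17, includes 1. When every barcode was first thinned to 2000 UMIs, which left out 5773 kept barcodes in KO and 617 in WT, the rule found 78 of 16554 in KO and 11 of 9401 in WT, a ratio of 4.03 (2.14 to 7.57). A share of sorted CD45-positive barcodes cannot tell more macrophages from fewer other cells.

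**Figure D2:**
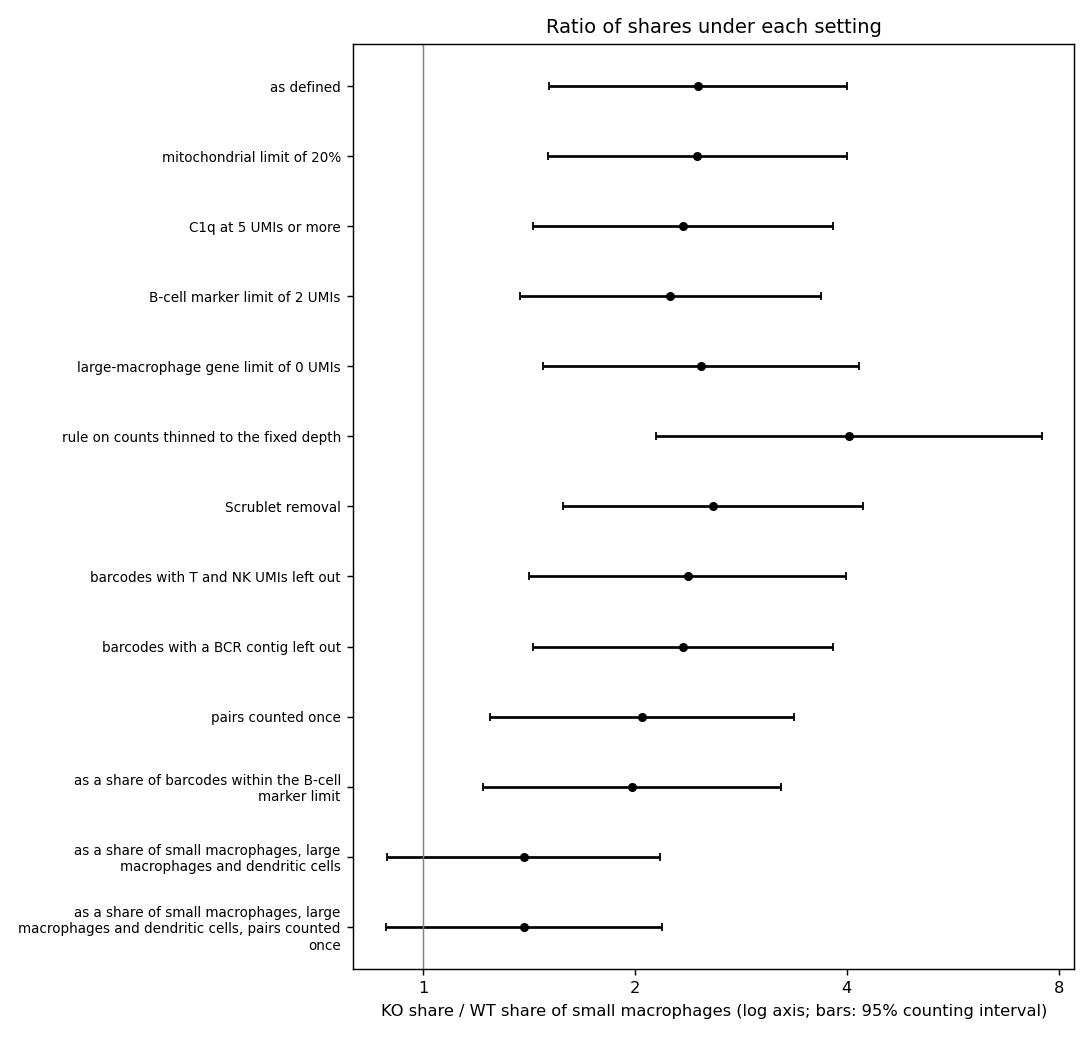
Ratio of the small macrophage share in KO to that in WT (log axis) under each setting, with 95% counting intervals. The ratio is 2.46 as defined, and its interval includes 1 where the share is taken among small macrophages, large macrophages and dendritic cells.

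The limits of the rule cut few barcodes closely. Of 330 KO and 66 WT barcodes with enough C1q transcripts, 283 and 55 had a Csf1r UMI. The limit on large-macrophage genes then removed 120 in KO and 29 in WT, and the B-cell limit removed 59 and 7. At exactly 2 large-macrophage UMIs, just inside, stood 3 KO barcodes and 1 WT barcode, and at exactly 3, just outside, stood 1 and 0. At exactly 3 C1q UMIs stood 4 KO barcodes and 0 WT barcodes, and 4 and 0 barcodes that met the other limits had 2. Csf1r was the weakest step, since 25 KO and 3 WT small macrophages had a count of 1.

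The C1q transcripts that chose these cells were usually present at many UMIs a barcode. Their sum had a median of 49 UMIs per barcode in KO (3 to 192) and 71 in WT (6 to 182). C1qb was the highest, at 4564 CPM (the gene's UMIs summed over the small macrophages of a library, scaled to 1000000 UMIs) in KO and 4106 in WT. C1qa was at 2478 CPM in KO and 1999 CPM in WT, and C1qc at 2128 and 1796. In T cells, which do not make C1q, C1qb was at 6.99 CPM in KO and 2.13 CPM in WT. Csf1r, the receptor for the macrophage growth factor CSF1, was at 477 CPM in KO and 482 CPM in WT small macrophages.

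The promoters of C1qb, C1qc and Retnla are shown because the C1q genes defined the cells and Retnla, a marker given for them, was held by few of them. Each runs 5′ to 3′ along the gene from 250 bases before its start to 50 bases after, in RefSeq sequence of build GRCm38.p6. The places are chr16:48842359-48842658 on the plus strand for Retnla, chr4:136886151-136886450 on the minus strand for C1qb, and chr4:136892865-136893164 on the minus strand for C1qc. Capitals mark matches on either strand to 5 motifs.
Retnla: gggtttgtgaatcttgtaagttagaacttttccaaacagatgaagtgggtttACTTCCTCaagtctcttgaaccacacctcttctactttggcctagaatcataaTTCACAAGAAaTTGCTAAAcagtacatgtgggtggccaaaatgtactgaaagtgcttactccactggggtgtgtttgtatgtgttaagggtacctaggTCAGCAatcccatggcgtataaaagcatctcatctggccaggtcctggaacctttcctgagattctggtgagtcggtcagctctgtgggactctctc
C1qb: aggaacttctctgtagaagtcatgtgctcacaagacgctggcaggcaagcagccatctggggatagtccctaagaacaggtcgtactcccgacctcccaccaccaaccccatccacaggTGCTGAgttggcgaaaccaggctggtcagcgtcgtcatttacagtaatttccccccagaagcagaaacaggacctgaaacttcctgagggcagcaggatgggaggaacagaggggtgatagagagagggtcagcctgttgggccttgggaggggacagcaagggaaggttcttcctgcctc
C1qc: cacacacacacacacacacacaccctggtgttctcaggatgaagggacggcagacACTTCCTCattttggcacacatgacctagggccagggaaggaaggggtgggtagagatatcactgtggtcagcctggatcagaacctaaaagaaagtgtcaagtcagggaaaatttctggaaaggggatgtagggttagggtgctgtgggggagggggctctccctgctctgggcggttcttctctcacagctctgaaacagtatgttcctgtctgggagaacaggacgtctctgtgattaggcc
The motif GAGGAAGT, bound by the macrophage factor PU.1, matched once in Retnla and once in C1qc, and 3.20% of all 32851 promoters of this length held it. The STAT6-type motif TTCNNNNGAA matched only in Retnla among these 3, and 6.95% of all promoters held it. The C/EBP-type motif TTGCNNAA matched in Retnla too, next to the STAT6-type match, and 10.8% of promoters held it. The core TGCTGA of sites bound by MAF factors matched in C1qb and in Retnla, and 19.5% of promoters held it. The spacing TTCNNNGAA of other STAT factors matched in none of the 3 and in 8.30% of all promoters. A match describes these letters and not a bound site.

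The label was checked against markers beyond the rule. Lysozyme 2, Lyz2, a gene of all monocytes and macrophages, was at 25385 CPM in KO and 26081 CPM in WT, with a UMI in every small macrophage. The monocyte receptor gene Ccr2 was at 864 CPM in KO (99 of 104 barcodes) and 836 CPM in WT (16 of 19). MHC class II led the profile. Its invariant chain Cd74 was the highest of all genes in KO at 37970 CPM and in WT at 41003 CPM, and H2-Aa was at 13259 CPM in KO and 13619 CPM in WT. Of the markers given for these cells, Apoe and Mrc1 were common and Retnla and Folr2 were not. Apoe, the lipid carrier, had a UMI in 95 of 104 KO and 15 of 19 WT barcodes. Mrc1, the mannose receptor, had one in 60 and 11. Retnla had one in 35 and 5, and Folr2, a folate receptor, in 27 and 3. These shares were set against T cells after thinning every barcode to 2000 UMIs, since the median depth of T cells was 2556 UMIs in KO and 4507 in WT. Apoe was then seen in 87.1% of KO and 73.7% of WT small macrophages, and in 2.85% and 0.524% of T cells. Retnla was seen in 32.7% and 21.1% of small macrophages, and in 0.190% and 0.291% of T cells. Folr2 was seen in 11.9% and 5.26% of small macrophages, and in 0 of 2108 and 0.0582% of T cells.

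Markers of other cells were absent in part. The 19 genes of a conventional dendritic cell list summed to 602 CPM in KO small macrophages and 477 CPM in WT, against 4511 and 4492 CPM in the Cd209a dendritic cells, and 8 of them in KO and 11 in WT were at 0. Of the lineage genes, Zbtb46, Xcr1, Clec9a and Kmo had 0 UMIs in both libraries, and Flt3 had 5 in KO and 0 in WT. Others of the list were present, among them Napsa, an aspartic protease, at 173 CPM in KO and 80.4 CPM in WT, and Batf3, a transcription factor, at 87.8 and 91.1 CPM. Clec10a had UMIs in 29 of 104 KO and 10 of 19 WT barcodes, and Tnip3 in 28 and 8. The part of dendritic cell RNA in the results was not tested. The resident macrophage receptor gene Timd4 was found in 1 small macrophage of each library, with 3 UMIs in KO and 4 in WT. The 10 genes of mesothelium and fibroblasts had 0 UMIs in both libraries. Lymphocyte transcripts were found in some barcodes. T-cell genes summed to 422 CPM in KO and 531 CPM in WT and were at 0 in 86 of 104 KO and 17 of 19 WT barcodes. B-cell genes outside the rule summed to 70.6 and 32.2 CPM, and any UMI of the B-cell genes of the rule, which limited them, was in 48 and 7 barcodes. At least 3 UMIs of T-cell markers were in 14 KO and 2 WT small macrophages, at least 3 of NK-cell markers in 5 and 0, and at least 3 of B-cell markers in 9 and 0. A contig in the BCR libraries was found for 5 of 104 small macrophages in KO (4.81%, 1.58 to 10.9 by the exact Clopper-Pearson method) and for 0 of 19 in WT, for which the same method gives an upper limit of 17.6%. The T-cell barcodes had a contig in 6.80% of KO and 1.21% of WT.

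Against the large macrophages, small macrophages held more of the MHC class II genes H2-Eb1 and H2-Aa and of Ccr2, and none of Tgfb2, Cd5l or Wnt2. Large macrophages were barcodes with at least 3 UMIs of the 5 large-macrophage genes, 92 in KO and 20 in WT, with a median of 6522.5 and 13317 UMIs. These comparisons describe classes that a rule cut from the same counts. Of 2835 genes, 154 (5.43%) were at least 2 times higher in small macrophages in both libraries and 246 (8.68%) at least 2 times lower. H2-Eb1, an MHC class II beta chain, was at 9765 CPM in small and 471 CPM in large macrophages of KO, and at 10269 and 36.6 CPM in WT. H2-Aa was 17.1 times higher in small macrophages in KO and 124 times in WT. Ccr2 was 14.8 times higher in KO, and in WT it was at 836 CPM against 0 UMIs, at least 68.6-fold higher.

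Ltb4r1, Cx3cr1 and Clec4b1 were also among the 12 highest. Ltb4r1, the receptor for leukotriene B4, was at 183 CPM in small and 3.24 CPM in large macrophages of KO, and at 96.5 and 0 CPM in WT. Cx3cr1, the fractalkine receptor, was at 93.6 and 3.24 CPM in KO and at 118 and 0 CPM in WT. The C-type lectin gene Clec4b1 was at 135 and 3.24 CPM in KO and at 150 and 0 CPM in WT. Ms4a4c, Tnip3, Cd300c2, Olfm1, Plbd1 and Plxnd1 completed the 12 highest, with small macrophages at 74.9 to 579 CPM and large ones at 0 to 27.5 CPM. H2-Aa and Cd74 reached 774 and 3051 CPM in large macrophages of KO and 110 and 305 CPM in those of WT, and the T cells of KO also held more of both, at 1186 and 3599 CPM against 538 and 1697 CPM in WT.

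The 6 lowest genes had 0 UMIs in small macrophages of both libraries. Tgfb2, which encodes transforming growth factor beta 2, was at 0 CPM in small and 367 CPM in large macrophages of KO, and at 0 and 382 CPM in WT. Cd5l, an inhibitor of apoptosis secreted by macrophages, was at 0 and 401 CPM in KO and at 0 and 821 CPM in WT. Wnt2, Cald1, Lbp and Ackr3 were likewise at 0 UMIs in small macrophages, and at 77.7 to 370 CPM in large ones. Adgre1 was lower as well, at 90.7 CPM in small and 646 CPM in large macrophages of KO and at 113 and 861 CPM in WT. Of the markers given for small macrophages, Apoe was in fact lower in them, at 3438 CPM against 12579 CPM in KO and 2487 CPM against 9459 CPM in WT. Mrc1 was higher, at 210 against 59.9 CPM in KO and 198 against 28.4 CPM in WT. Only 5% of WT large macrophages held Mrc1. It did not set small macrophages apart from the Cd209a dendritic cells, which had 142 CPM in KO and 122 CPM in WT. Folr2 was higher in KO, at 93.6 against 35.6 CPM. In WT it was at 21.4 against 8.13 CPM, on 4 UMIs in small macrophages and 5% of large ones, too few to call a difference.

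**Figure D3:**
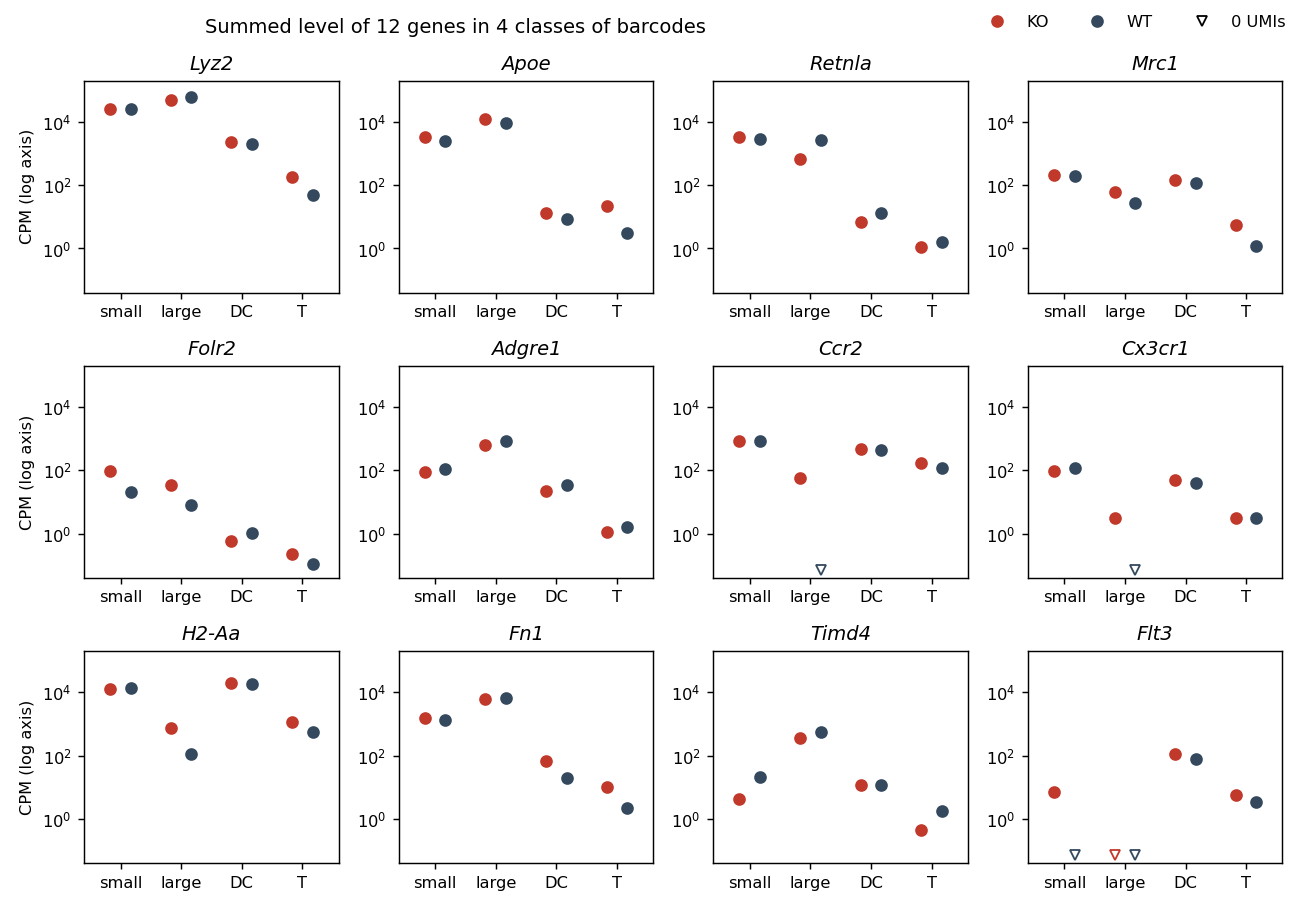
CPM (log axis) of 12 genes in small macrophages, large macrophages, Cd209a dendritic cells (DC) and T cells, KO left of WT within each class. Open triangles are 0 UMIs. Small macrophages share Ccr2 and H2-Aa with dendritic cells and Lyz2, Apoe and Fn1 with large macrophages, and have little Timd4 or Flt3.

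Against the Cd209a dendritic cells, small macrophages held more Apoe, Lyz1, Retnla, C5ar1 and C3ar1 and less Flt3 and H2-Oa. Dendritic cells were barcodes with at least 2 Cd209a and at most 2 C1q UMIs, 273 in KO and 80 in WT, with a median of 5970 and 11089 UMIs. Of 2754 genes, 202 (7.33%) were at least 2 times higher in small macrophages in both libraries and 134 (4.87%) at least 2 times lower. Apoe was 250 times higher in small macrophages in KO and 297 times in WT. Lyz1, a second lysozyme, was 319 and 235 times higher. C5ar1, the receptor for the complement peptide C5a, was at 389 CPM in small macrophages and 3.43 CPM in dendritic cells of KO, and at 327 and 1.05 CPM in WT. C3ar1, the receptor for C3a, was at 174 and 0.572 CPM in KO and at 166 and 0 CPM in WT. The other genes among the 12 highest were Retnla, the scavenger receptor gene Msr1, the carbonyl reductase gene Cbr2, the neutrophil attractant Cxcl1, the lipid enzyme genes Pla2g7 and Ltc4s, the apolipoprotein gene Apoc2, and Plcb1.

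Small macrophages were lower in several genes typical of dendritic cells. Flt3, the growth factor receptor of dendritic cells, was at 7.20 CPM in small macrophages and 114 CPM in dendritic cells of KO, and at 0 and 78.4 CPM in WT. Klrd1, a receptor chain best known from NK cells, was at 7.20 and 256 CPM in KO and at 0 and 179 CPM in WT. H2-Oa, which restrains peptide loading on MHC class II, was at 4.32 and 263 CPM in KO and at 0 and 190 CPM in WT. Cd209d and Klrb1b were at 0 to 1.44 CPM in small macrophages and at 61.7 to 196 CPM in dendritic cells. Cd209a itself chose the dendritic cells. MHC class II was high in both classes, and H2-Aa was at 13259 CPM in small macrophages and 19384 CPM in dendritic cells of KO, and at 13619 and 18065 CPM in WT.

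Retnla was at 0 in most barcodes and very high in a few. In KO it ranged from 0 to 614 UMIs per 10000, with a median of 0, and in WT from 0 to 459, also with a median of 0. It was at 0 in 69 of 104 KO and 14 of 19 WT small macrophages. The 10 richest KO barcodes held 84.8% of its 2385 UMIs, and 1 WT barcode held 79.0% of its 547. Summed levels of Retnla therefore rest on few barcodes. They were 3434 CPM in KO and 2932 CPM in WT, a ratio of 1.17 (1.07 to 1.29), which was 0.854 with 1 barcode per pair and 4.36 without the richest barcode of each library. Large macrophages also held Retnla, at 660 CPM in KO and 2706 CPM in WT, and T cells had 1.09 and 1.57 CPM.

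Other markers were spread more evenly. Apoe had a median of 17.6 UMIs per 10000 in KO (0 to 241) and 14.5 in WT (0 to 80.2). H2-Aa had a median of 127 in KO (0 to 297) and 133 in WT (23.4 to 219). Ccr2 had a median of 7.74 in KO (0 to 35.1) and 7.78 in WT (0 to 22.2). Fn1, the fibronectin gene, had a median of 9.47 in KO (0 to 246) and 8.87 in WT (0 to 67.5). The libraries overlapped widely in each of these 4 genes, with all WT values inside the KO range.

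**Figure D4:**
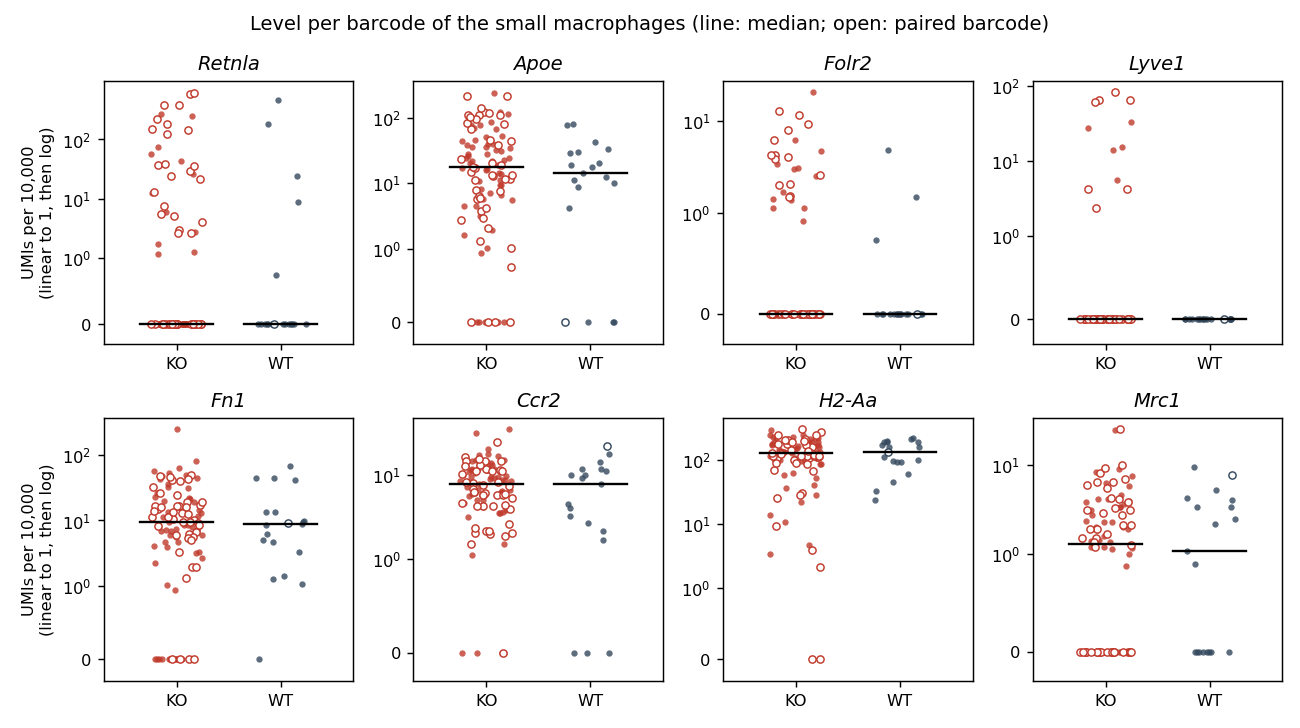
UMIs per 10000 in each small macrophage barcode for 8 genes (scale linear to 1, then logarithmic), KO left of WT. The line is the median and open points are paired barcodes. Retnla, Folr2 and Lyve1 are at 0 in most barcodes, and Lyve1 has UMIs in 12 KO and 0 WT barcodes.

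A few KO small macrophages carried Lyve1, a hyaluronan receptor gene of resident tissue macrophages. It had 181 UMIs in 12 of 104 KO barcodes, which are 9 distinct profiles, and 0 UMIs in 19 WT barcodes. These barcodes were singled out after their values were seen, and a split by 1 gene is a range and not a cell type. Folr2 was at 523 CPM in the 12 barcodes with Lyve1 and at 53.5 CPM in the other 92 of KO. Pf4, a platelet chemokine that macrophages also make, was at 1485 and 86.6 CPM. Fcna, a ficolin of the lectin complement pathway, was at 1248 and 12.6 CPM, and Cbr2 was at 1501 and 113 CPM.

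The same 12 barcodes had more Apoe, at 9548 CPM against 2868 CPM in the rest, and more Mrc1, at 540 against 179 CPM. F13a1, the coagulation factor XIII subunit of macrophages, was at 1687 and 538 CPM. They had less of the antigen-presenting genes, with H2-Aa at 2902 against 14226 CPM and Cd74 at 11758 against 40416 CPM. Ccr2 was at 337 and 913 CPM. Il1b, the inflammatory cytokine, and Cx3cr1 had 0 UMIs in the 12, against 272 and 102 CPM in the rest. Timd4 was in 1 of the 12. Lyve1 was also in the large macrophages, at 139 CPM in KO and 114 CPM in WT, and at 0 UMIs in the T cells of both libraries.

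A split by Folr2 went the same way for Pf4, Mrc1, Apoe, H2-Aa and Cd74. It is not separate support, since 9 of the 12 Lyve1 barcodes also held Folr2. At 2000 UMIs each, 12 KO small macrophages had a Folr2 UMI and 89 did not, against 1 and 18 in WT. In KO, Pf4 was at 750 CPM with Folr2 and 202 CPM without, Mrc1 at 583 and 197 CPM, and Apoe at 6292 and 3556 CPM. H2-Aa was at 6833 CPM with Folr2 and 13640 CPM without, and Cd74 at 20375 and 39118 CPM. Lyz2 stood at 23500 and 25618 CPM, and Retnla at 4083 and 3466 CPM. With Mrc1 in place of Folr2, 33 KO barcodes had a UMI and 68 did not. H2-Aa was then at 10818 CPM with Mrc1 and 13809 CPM without, and Apoe at 4364 and 3647 CPM. Lyve1 was at 955 and 110 CPM, and Retnla at 6500 and 2103 CPM.

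Expression in KO and WT small macrophages was compared over 694542 UMIs in KO and 186573 in WT. Of 3162 genes at 50 CPM or more in a library, 416 (13.2%) had a KO to WT ratio above 1.5 and 409 (12.9%) a ratio below its inverse. Only 12 higher and 35 lower genes had a counting interval wholly past those limits and UMIs in enough barcodes. A gene needed 50 CPM in only a single library, so the filter itself favoured extreme ratios in both directions. Among the higher genes, Lyve1, Fcna, Commd2, Ccl5, Pf4, Mdm1, Folr2 and Padi4 passed it through KO alone, at 0 to 48.2 CPM in WT. Among the 12 genes higher in KO were several that the Lyve1 barcodes held at high levels. Lyve1 itself was at 261 CPM in KO and 0 UMIs in WT, 16.2-fold higher against a limit of 3 WT UMIs. That limit sets no minimum fold, because the 10 richest of its 12 KO barcodes held 98.9% of its UMIs. Fcna was at 118 and 5.36 CPM, a ratio of 22.0 (3.84 to 881). Pf4 was at 206 and 37.5 CPM, a ratio of 5.49 (2.60 to 13.9). Folr2 was at 93.6 and 21.4 CPM, a ratio of 4.37 (1.63 to 16.5). With 1 barcode per pair the last 3 ratios were 19.8, 5.03 and 3.54. At a large-macrophage gene limit of 0 UMIs they were 12.2, 3.30 and 5.29. Large macrophages held more Fcna and Pf4 than small ones, at 903 and 2743 CPM in KO and 573 and 2576 CPM in WT.

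Outside the Lyve1 barcodes Fcna, Pf4 and Folr2 were nearer to their WT levels, which rest on 1, 7 and 4 UMIs. In the 92 KO small macrophages without Lyve1, Fcna was at 12.6 CPM, Pf4 at 86.6 CPM and Folr2 at 53.5 CPM, against 5.36, 37.5 and 21.4 CPM in WT. Among the 92 was the pair partner of a Lyve1 barcode, with 5 Fcna, 11 Pf4 and 2 Folr2 UMIs. Whether a KO excess remained outside the Lyve1 profiles was not tested. Ltc4s, which makes leukotriene C4, was broader, with UMIs in 64 of 104 KO and 8 of 19 WT barcodes. It was at 615 CPM in KO and 188 CPM in WT, a ratio of 3.28 (2.32 to 4.77). Fcgrt, the neonatal Fc receptor that recycles IgG, was at 272 and 102 CPM, a ratio of 2.67 (1.66 to 4.54), in 62 and 9 barcodes. Wfdc17, a secreted protease-inhibitor-like protein, was at 1273 and 659 CPM, a ratio of 1.93 (1.60 to 2.35), in 87 and 18 barcodes, and the ratio was 1.29 with each barcode weighted alike.

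The other genes higher in KO were Commd2, Ccl5, Mdm1, Rgs1 and Padi4. Commd2 was at 64.8 CPM in KO and 5.36 CPM in WT, a ratio of 12.1 (2.06 to 488) against 1 WT UMI. Mdm1 was at 76.3 and 16.1 CPM, a ratio of 4.75 (1.54 to 23.7). Ccl5, a chemokine that T and NK cells make in quantity, was at 465 and 48.2 CPM, a ratio of 9.64 (5.02 to 21.3), in 13 KO and 2 WT barcodes. It was at 5214 CPM in the T cells of KO and 4755 CPM in those of WT, and its ratio in small macrophages was 3.39 after Scrublet removal of likely doublets, 7.27 without barcodes that held lymphocyte UMIs, and 56.0 without the barcode richest in it in each library. Rgs1, a brake on chemokine receptor signals, was at 298 and 75.0 CPM, a ratio of 3.97 (2.31 to 7.39). Padi4, which turns arginine to citrulline in histones, was at 101 and 26.8 CPM, a ratio of 3.76 (1.54 to 11.9).

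Genes lower in KO were led by targets of interferon. Cxcl10, which attracts activated T cells, was at 11.5 CPM in KO and 477 CPM in WT, a ratio of 0.0241 (0.0101 to 0.0497). Isg15, a ubiquitin-like antiviral protein, was at 20.2 and 198 CPM, a ratio of 0.102 (0.0508 to 0.192). Ifit2 had 0 UMIs in KO and 16 in WT, and Ifit3 had 1 and 15. Cxcl10, Isg15, Ifit2 and Ifit3 passed the 50 CPM filter through WT alone, which favoured low ratios. The WT level of these genes lay in few barcodes, because 1 WT barcode held 96.6% of Cxcl10, 78.4% of Isg15, 87.5% of Ifit2 and 86.7% of Ifit3 UMIs. Without the richest barcode of each library the ratio was 0.438 for Cxcl10 and 0.358 for Isg15.

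Of 22 measured interferon-induced genes, 21 were lower and 1 was higher in KO, relative to the median log2 ratio of all 7762 genes at 10 CPM or more, which was -0.02. The list median was -1.54 on that log2 scale. Genes at 0 UMIs in a library, such as Ifit2, have no log2 ratio and were not counted as measured. The ratio was past 1.5-fold in 17 of the 22, and 20.9% of all genes at this level were past it in that direction. With 1 barcode per pair the median was -1.65. The richest WT barcode held 289 of the 1516 UMIs of this list, 375 per 10000, and the next had 119, while the highest KO barcode had 143. The median barcode had 56.7 per 10000 in KO and 67.1 in WT. Without the richest barcode of each library, 15 of 19 measured genes were lower and the list median was -0.54. Gbp2, an interferon-gamma-induced GTPase, was spread over more barcodes, 23 in KO and 13 in WT. It was at 44.6 CPM in KO and 188 CPM in WT, a ratio of 0.238 (0.142 to 0.397) that was 0.245 without its richest barcode in each library. Gbp2 reached 50 CPM through WT alone, which favoured a low ratio. Ifitm3, the most abundant of the list, was at 4769 and 5312 CPM, a ratio of 0.898.

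Genes of the MHC class I pathway were slightly lower in KO. All 15 measured genes were below the median of all genes, with a list median of -0.39. Only 3 were past 1.5-fold, near the 20.9% of all genes, and the intervals of Tap2 (0.443 to 1.25) and Calr (0.695 to 1.19) include 1. The class I heavy chain H2-K1 was at 1758 CPM in KO and 2332 CPM in WT, a ratio of 0.754 (0.675 to 0.843). B2m, its light chain, was at 1758 and 2155 CPM, a ratio of 0.816 (0.728 to 0.916). The immunoproteasome subunit Psmb10 was at 150 and 257 CPM, a ratio of 0.582 (0.410 to 0.837), and the peptide transporter Tap1 at 86.4 and 150 CPM, a ratio of 0.576 (0.362 to 0.936). The median was -0.43 without the barcode richest in the list and -0.14 with each barcode thinned to 2000 UMIs. MHC class II was nearly level, with 9 of 12 genes lower, a median of -0.04 and Cd74 at a ratio of 0.926 (0.903 to 0.950). With barcodes thinned its median was 0.31, but other lists, such as cytosolic ribosome and lysosome, rose then as well, while some fell.

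Cholesterol synthesis genes were low in both libraries and lower in KO. Of 12 measured, 11 were lower and 10 were past 1.5-fold, against the 20.9% of all genes, with a list median of -0.93, on 228 UMIs in KO and 119 in WT. Hmgcs1, an early enzyme of the pathway, and Fdps, a later one, were each at 33.1 CPM in KO and 102 CPM in WT, a ratio of 0.325 (0.169 to 0.631). Srebf2, which switches these genes on, was at 41.8 and 80.4 CPM, a ratio of 0.519 (0.269 to 1.04). Hmgcs1, Fdps and Srebf2 passed the 50 CPM filter through WT alone, which favoured low ratios. A WT barcode held 44 of the 119 UMIs, and without the richest barcodes 8 of 11 genes were lower, with a median of -0.75. Cholesterol efflux genes went both ways, with 7 of 12 higher and a median of 0.34, and 0.11 over genes at 50 CPM or more. They included Lpcat3, which remodels phospholipids, at a ratio of 0.672 (0.368 to 1.28), Apoe at a ratio of 1.38 (1.25 to 1.53) and the lipid transfer protein gene Pltp at 1.33 (1.18 to 1.51).

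**Figure D5:**
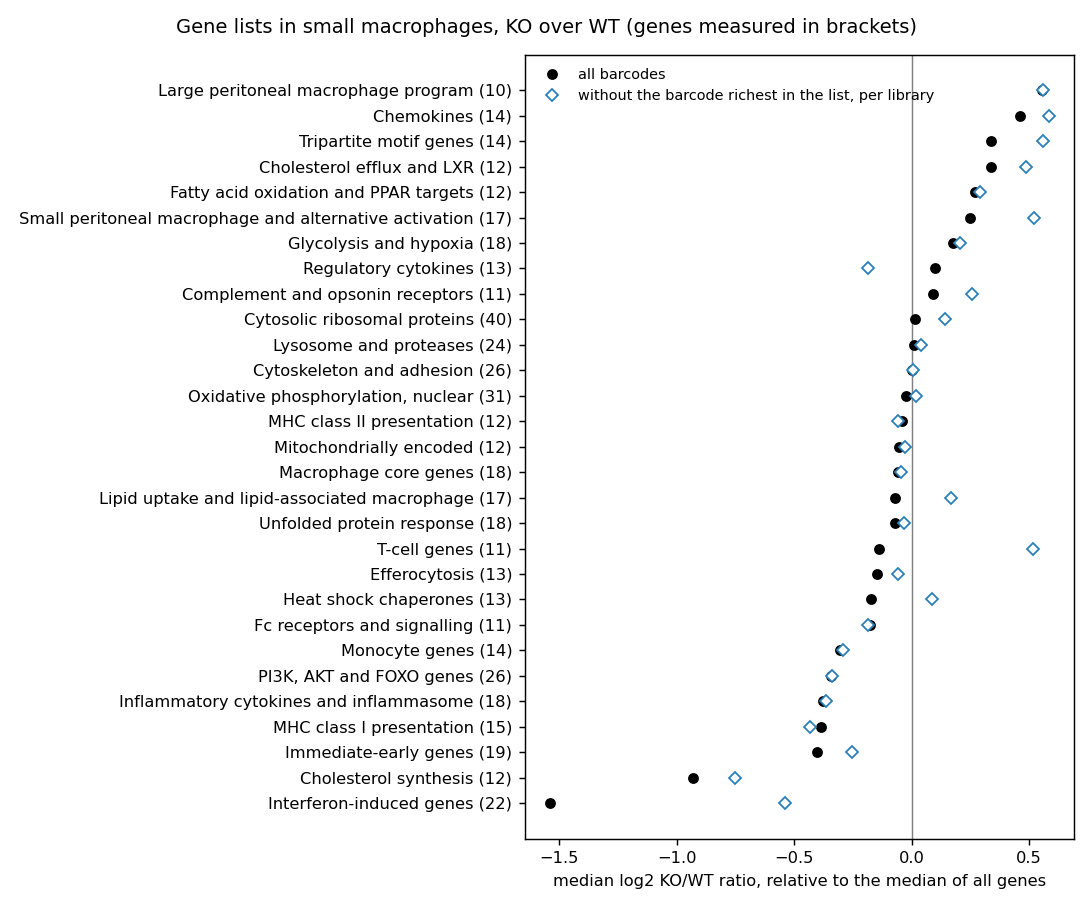
Median log2 KO to WT ratio of each gene list with at least 10 measured genes in small macrophages, relative to the median of all genes, for all barcodes (black points) and without the barcode richest in the list in each library (open blue diamonds). The interferon-induced list stands at -1.54 with all barcodes and at -0.54 without those, and MHC class I presentation stays near -0.4.

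Inflammatory and immediate-early genes were mostly lower in KO. Of 18 inflammatory genes 12 were lower and 7 were past 1.5-fold, against the 20.9% of all genes. Their median was -0.38 (-0.57 to -0.22 over the alternatives). Nfkbia, the inhibitor that NF-kB induces, was at 831 CPM in KO and 1270 CPM in WT, a ratio of 0.654 (0.561 to 0.764), and Tnfaip3, another brake on NF-kB, at 112 and 241 CPM, a ratio of 0.466 (0.319 to 0.688). Il1b was level within counting error, at 249 and 284 CPM, a ratio of 0.877 (0.641 to 1.22). Of 19 immediate-early genes 15 were lower and 7 were past 1.5-fold, with a median of -0.40 (-0.57 to -0.15 over the alternatives). Jun was at 271 and 504 CPM, a ratio of 0.537 (0.417 to 0.696), whereas Fos, Junb and Dusp1 had ratios of 1.02, 0.974 and 1.02.

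Chemokines went both ways, with 8 of 14 measured genes higher in KO and 6 lower. Ccl6, the most abundant, was at 8408 CPM in KO and 6309 CPM in WT, a ratio of 1.33 (1.25 to 1.42), and Ccl9 was at 1378 and 965 CPM, a ratio of 1.43 (1.22 to 1.68). Ccl4 was at 64.8 and 295 CPM, a ratio of 0.220 (0.145 to 0.332). Cxcl2, a neutrophil attractant, was at 1277 and 2305 CPM, a ratio of 0.554 (0.493 to 0.623). The remaining lower genes among the 15 lowest were Cmpk2, Hspa1b, Lilra6, Cd247, Tapbpl, Fgl2, Tmem214, Hivep1, Btaf1 and Ifi211, at 1.44 to 15.8 CPM in KO and 53.6 to 80.4 CPM in WT. They passed the 50 CPM filter through WT alone, 4 of them (Cmpk2, Hspa1b, Tmem214 and Hivep1) with 10 UMIs there, so the filter itself favoured low ratios. Cd247, a T-cell receptor signalling chain, lay in 5 KO and 2 WT barcodes, and could not be compared once barcodes with lymphocyte UMIs were left out.

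Genes of small macrophages and alternative activation were mostly higher in KO, with 15 of 17 above the median of all genes and a list median of 0.25. The list was not particular to small macrophages. It summed to 9670 CPM in small and 17900 CPM in large macrophages of KO, and to 7450 and 15623 CPM in WT. Of these, 6 were more than 1.5-fold higher, while 20.3% of all genes at 10 CPM or more were. Mrc1 and Ccr2 were level within counting error, with ratios of 1.06 (0.735 to 1.56) and 1.03 (0.865 to 1.24), and Cx3cr1 was at 93.6 and 118 CPM. The large peritoneal macrophage list, without the genes of the rule, was higher as well, with 7 of 10 above the median of all genes, 5 more than 1.5-fold higher and a median of 0.55 (0.23 to 1.15 over the alternatives). Thbs1, the matrix protein thrombospondin, is in that list and was at 363 CPM in KO and 177 CPM in WT, a ratio of 2.05 (1.42 to 3.05). From the complement receptor list, Itgam, the integrin chain CD11b, was at 382 CPM in KO and 198 CPM in WT, a ratio of 1.92 (1.36 to 2.79). Itgam was the most extreme of its list, which was balanced, with 6 of 11 genes higher and a median of 0.09. The macrophage core list, which also holds Itgam, had 7 of 18 genes higher and a median of -0.06. From the iron list, Trf, the iron carrier transferrin, was at 1247 and 713 CPM, a ratio of 1.75 (1.46 to 2.12).

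Lipid-associated macrophage genes, which mark fat-laden macrophages of obese tissue, were present at modest levels and differed little. Of 17 measured, 7 were higher and 10 lower in KO, with a median of -0.07, which turned to 0.17 without the barcode richest in the list. Trem2 was at 46.1 CPM in KO and 48.2 CPM in WT, Cd36 at 454 and 509 CPM, and the lipid droplet gene Plin2 at 724 and 900 CPM. Gpnmb had 0 UMIs in both libraries. Genes of the cytoskeleton, cytosolic ribosome, lysosome and nuclear-encoded respiratory chain had medians between -0.02 and 0.01. With barcodes thinned these were 0.30, 0.33, 0.41 and 0.17. Mitochondrially encoded genes had a median of -0.05, and of 0.01 when thinned.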

How the data were processed

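Expression was measured as counts of UMIs per gene and barcode, deposited by the authors unnormalised for 32285 genes. Cell Ranger 6.1.2 wrote the matrices, per the file headers. Cell Ranger 6.0.1, Seurat 4.3.0 and the mouse build mm39 are listed per the submitters' processing notes, and which version made the counts is uncertain. The BCR contig tables hold UMI counts per contig, deposited by the authors.

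UMIs were summed over barcodes of a class in each library and scaled to CPM, with exact Poisson intervals. A ratio of KO to WT levels has an exact interval from the binomial split of its UMIs, and a share has an exact Clopper-Pearson interval. For ratios between shares the interval was normal on a log scale. No test was made, as there is 1 library per genotype. The code was run on simulated data. Doublets were not removed in the results as given. Removal by Scrublet (scanpy 1.11.5) at 0.8% per 1000 barcodes was an alternative. Barcode pairs were sought among the 50 nearest neighbours of a barcode, and with shallow barcodes some are missed. The shared thinned depth was 2000 UMIs.

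Named genes had 50 CPM in a library, UMIs in 10% of barcodes where higher, and an interval past 1.5-fold. The 15 highest and 15 lowest were taken, and members of gene lists were added. Among the added were those with the largest ratios of their list in either direction, so they do not stand for the list. Against other classes the 12 highest and 6 lowest were named. List medians and counts use genes at 10 CPM or more with UMIs in both libraries, without genes of the rule. This left out 2 genes of the interferon-induced list, among them Ifit2. It also left out 2 genes of the small macrophage and alternative activation list, among them Lyve1. Rankings left out predicted, haemoglobin, ribosomal, mitochondrial and sex-linked genes and those of antigen receptors. The cells, the 39 lists and the rules were chosen with earlier results of these data known. The handling of barcode pairs, the share among myeloid classes and the removal of the barcode richest in a list were added after the data were seen. Genes were counted without stated strand, so overlapping and duplicated genes are uncertain. The gene knocked out and some other items are not reported here. Intervals ignore amplification and mouse-to-mouse variation.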

Additional observations from a re-analysis of the deposited data

How the results depend on the processing

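No paired analysis was possible because each genotype had 1 expression library. The KO to WT ratio of shares was 2.46 and stayed between 1.98 and 2.58 under 9 settings. It was 4.03 with every barcode thinned, 1.39 as a share of small macrophages, large macrophages and dendritic cells, and 1.39 with pairs there counted once. The counts of 416 genes higher and 409 lower in KO were 118 and 145 with a filter at 100 CPM, 1859 and 1668 at 10 CPM, and 850 and 1418 with barcodes thinned, where few UMIs remain per gene. At 4-fold in place of 2-fold, 47 genes were higher and 104 lower than in large macrophages, and 74 higher and 43 lower than in dendritic cells. For 26 named genes none of 176 values under alternatives turned direction, and 157 lay within the counting interval. These genes were chosen from the same counts for intervals past 1.5-fold, so this outcome was largely set by the choice. Lyve1 and values that could not be formed were left out. The interferon-induced list ranged from -1.76 to -0.54, cholesterol synthesis from -1.01 to -0.49, MHC class I from -0.43 to -0.14 and alternative activation from 0.15 to 0.53. The tripartite motif list had a median of 0.34, and of -0.08 with barcodes thinned. With barcodes thinned other lists rose, among them cytosolic ribosome from 0.01 to 0.33, lysosome from 0.01 to 0.41 and macrophage core from -0.06 to 0.48. Some fell, such as heat shock chaperones, from -0.17 to -0.32. A thinned median therefore cannot be read as a change of that list alone. The causes of these shifts were not tested. Depth limits genes under about 50 CPM, since 19 WT barcodes hold 186573 UMIs.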

Other observations

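Tripartite motif genes, many of which tag proteins with ubiquitin in antiviral defence, were mostly higher in KO small macrophages, 11 of 14 measured, with a median log2 ratio of 0.34 that was -0.08 with barcodes thinned to 2000 UMIs. Trim8 was at 105 CPM in KO and 69.7 CPM in WT, a ratio of 1.51 (0.832 to 2.97). Genes of the PI3K pathway were mostly lower in KO, 19 of 26, with a median of -0.34 and -0.02 when thinned, where other lists rose too. Inpp5d, the phosphatase SHIP1, was an exception at 82.1 CPM in KO and 32.2 CPM in WT, a ratio of 2.55 (1.10 to 7.24). It reached 50 CPM through KO alone, which favoured a high ratio. Unfolded protein response genes were balanced, with 8 of 18 higher, but the chaperone gene Hspa5 was at 760 CPM in KO and 1265 CPM in WT, a ratio of 0.601 (0.515 to 0.704). The cytosolic chaperone gene Hspa8 was at 1515 and 2342 CPM, a ratio of 0.647 (0.578 to 0.725).

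Monocyte genes were mixed, with 5 of 14 higher in KO and a median of -0.31. It was 0.48 with barcodes thinned, where macrophage core genes rose as well. Plac8 was at 97.9 CPM in KO and 236 CPM in WT, a ratio of 0.415 (0.280 to 0.621). Ly6c2, the classical monocyte antigen, was at 76.3 and 102 CPM, in 14 and 3 barcodes, a ratio of 0.749 (0.436 to 1.34). Its direction is open, since 1 WT barcode held 12 of its 19 UMIs there. The ratio was 1.86 without barcodes that held lymphocyte UMIs and 2.26 with barcodes thinned. T cells had Ly6c2 at 774 CPM in KO and 758 CPM in WT. Dividing cells were rare, with Mki67 in 3 KO barcodes and 1 WT barcode. Saa3, an acute-phase gene, had 46 UMIs in 1 KO barcode and 0 in WT.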
